A study of Rattus norvegicus with 4 samples.

Results

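Hox, forkhead and T-box genes encode families of transcription factors, and 54 gene names of these families were followed here in cultured olfactory ensheathing cells of the rat. A probe was taken when its array name, without an ending for predicted or mapped genes, was a Hox name of cluster a to d, a Fox name of subfamily a to s or a numbered Tbx name. Foxc1, Foxc2, Foxd1, Foxd3, Foxm1 and Tbx18 were set aside. This gave 61 probes of 41012, and 54 gene names of 35658, of which 21 were Hox, 23 forkhead and 10 T-box names. The rule itself used names only and no measured value, but it was set with earlier results of these data known.

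Olfactory ensheathing cells are the glial cells around the olfactory nerve fibres that run between the nose and the brain. Mucosa cells, labelled with Cy5, were grown from the olfactory mucosa, and bulb cells, labelled with Cy3, from the olfactory bulb. Both came from male rats of the Fischer strain and were grown by the same culture protocol. Each of 4 arrays held 1 biological replicate as a mucosa and bulb pair, all 4 with the same dye orientation, so an effect of dye and an effect of tissue cannot be told apart. The labels give no age and do not say whether the replicates came from separate animals, so p-values measure the spread between these 4 pairs, which may be in part technical.

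Hox genes lie in 4 chromosomal clusters, and their order within a cluster follows the order in which they are used along the body axis of the embryo. They mark the hindbrain, spinal cord and trunk, while the forebrain, to which the olfactory bulb belongs, is classically described as lacking them. Forkhead factors bind DNA through a winged-helix domain and include Foxj1 of cells with motile cilia and the FoxO factors, which insulin and Akt signalling keeps out of the nucleus. T-box factors share the DNA-binding domain of the mouse gene Brachyury and act in limb, heart and mesoderm formation, with Tbx21 known for its role in T cells.

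The probes are 60 bases long, and 3 are shown first because 1 result rests on them. They are the Hoxc6 probe, at chr7:141774182-141774241 of the rn4 build on the plus strand, and the probes of the 2 related genes whose sequences came closest to it. Those are Hoxb7 (named R1b on the array, chr10:85020148-85020207) and Hoxb6 (named RGD1562142, chr10:85032800-85032859). Each is written 5′ to 3′ as the scanner files give it, and capitals in the Hoxb7 and Hoxb6 probes mark bases that differ from the Hoxc6 probe where they overlap.
Hoxc6: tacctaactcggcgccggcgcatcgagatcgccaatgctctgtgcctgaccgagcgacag
Hoxb7: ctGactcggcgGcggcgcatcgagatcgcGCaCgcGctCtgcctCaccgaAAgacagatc
Hoxb6: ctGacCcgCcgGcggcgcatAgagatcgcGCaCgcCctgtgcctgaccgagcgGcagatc
Both related probes shared 47 of the 57 bases over which they overlapped the Hoxc6 probe, the highest number among 92 probes of these families compared without gaps. The Hoxa5 probe shared 40 bases and the Hoxb8 probe 38. How much RNA of related Hox genes binds the Hoxc6 spot was not tested.

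A further 4 probes are shown because the 2 probes of Hoxd1, and the 2 probes of Foxk2, gave different results. The Hoxd1 probes lie 401 bases apart, at chr3:57379175-57379234 (probe of higher signal) and chr3:57379576-57379635 (probe of lower signal). The Foxk2 probes lie 9184 bases apart, at chr10:110541873-110541932 (higher signal) and chr10:110551057-110551116 (lower signal). All 4 are on the plus strand of rn4, and their letters have no capitals because no shared stretch was compared.
Hoxd1, higher signal: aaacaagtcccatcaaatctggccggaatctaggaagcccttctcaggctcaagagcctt
Hoxd1, lower signal: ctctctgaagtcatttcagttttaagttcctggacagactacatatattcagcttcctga
Foxk2, higher signal: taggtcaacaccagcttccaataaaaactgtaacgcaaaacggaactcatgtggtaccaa
Foxk2, lower signal: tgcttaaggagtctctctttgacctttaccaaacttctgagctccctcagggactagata

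Whether the members were detected at all was asked first. A probe counts as well above background on an array when the scanner software marked its signal so, and a gene counts as detected in a tissue when at least 1 of its probes was well above background on at least 3 of the 4 arrays. By this rule 45 of 54 members were detected in mucosa cells (83.3%) and 44 in bulb cells (81.5%), against 86.2% and 87.5% of all gene names. In both tissues 43 were detected, and 8 in neither. The genes of odorant receptors, a family known from sensory neurons, passed this rule for 61.0% of 1106 names in mucosa cells and 55.0% in bulb cells. Why so many of these names passed was not tested, and the rule is called lenient below. Of the 153 negative-control spots on an array, 0% to 1.31% were marked in the mucosa channel and 0% to 1.96% in the bulb channel.

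A stricter rule, chosen after seeing the data, asked for a signal of at least 10 times the local background on all 4 arrays. It kept 23 members in mucosa cells (42.6%) and 21 in bulb cells (38.9%), against 42.1% and 48.8% of all gene names and 11.8% and 10.6% of odorant receptor names. T-box genes passed most often, with 7 of 10 in mucosa cells and 5 in bulb cells. Forkhead genes passed for 12 of 23 in mucosa cells and 13 in bulb cells. Hox genes passed for 4 of 21 in mucosa cells (19.0%) and 3 in bulb cells (14.3%), which is near the odorant receptor share. A low spot signal on such an array does not show that a transcript is absent, and levels of different probes were not compared.

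**Figure D1:**
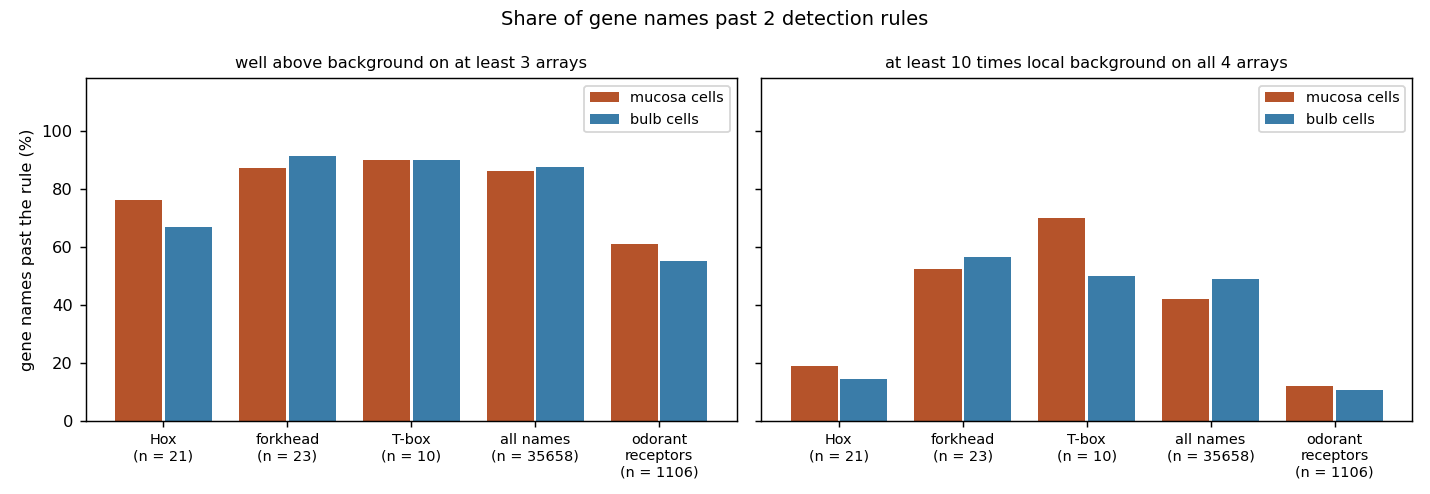
Share of gene names, in percent, past the lenient rule (left) and the strict rule (right) in mucosa cells and bulb cells, for each family, for all names and for odorant receptors. Under the strict rule the Hox bars, 19.0% and 14.3%, stand near the odorant receptor bars, 11.8% and 10.6%.

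The 20 members past the strict rule in both tissues were Hoxa7, Hoxc6 and Hoxd3, the T-box genes Tbx2, Tbx3, Tbx4, Tbx5 and Tbx15, and 12 forkhead genes. The forkhead genes were Foxd2, Foxe3, Foxi1, Foxj3, Foxn1, Foxo1a, Foxo3a, Foxp1, Foxp3, Foxp4, Foxq1 and Foxr1. Hoxa5, Tbx6 and Tbx21 passed in mucosa cells only, and Foxk2 in bulb cells only, a count by threshold and not a tested difference. Among those in both tissues, and picked out after their values were seen, are genes known for narrow expression, such as Foxn1 of the thymus and skin epithelium and Foxp3 of regulatory T cells. On the 4 arrays the Foxp3 signal stood 44.5 to 57.2 times above local background in mucosa cells and 34.1 to 44.4 times in bulb cells. Whether these spots measured only the transcripts they are named for was not tested.

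Within the Hox clusters, detection by the lenient rule ran from group 1 genes (Hoxb1, Hoxd1) to Hoxb13 of group 13. In mucosa cells 16 of 21 Hox genes were detected and in bulb cells 14. Among those detected in neither tissue were Hoxa2, Hoxd10, Hoxd12 and Hoxd13, which were well above background on at most 2 arrays in either channel. Hoxa4 passed on 3 arrays in mucosa cells and 1 in bulb cells, and Hoxb1 on 4 in mucosa cells and 2 in bulb cells. Their signals were close to background, at 1.42 to 1.79 times for Hoxa4 and 1.43 to 2.64 times for Hoxb1 in mucosa cells. Outside the Hox genes, Foxa1, Foxl2 and Tbx20 were detected in neither tissue. Foxn4 passed on 2 arrays in mucosa cells and 3 in bulb cells.

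**Figure D2:**
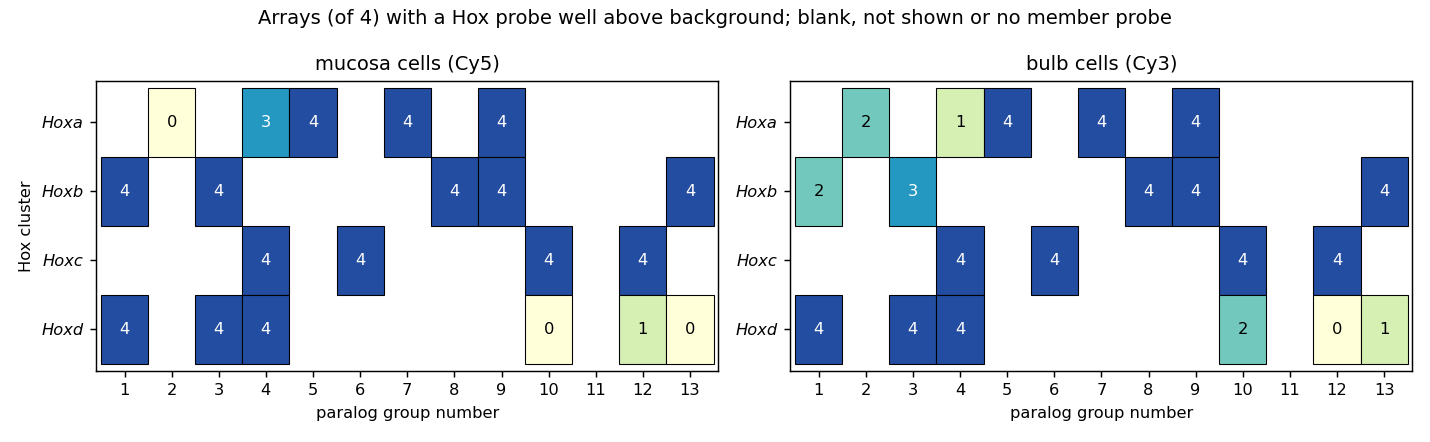
Number of arrays, of 4, on which a probe of each Hox gene shown was well above background, by cluster (rows) and paralog group number (columns), in mucosa cells (left) and bulb cells (right). Hoxa2, Hoxd10, Hoxd12 and Hoxd13 have at most 2 arrays in either panel, and blank places are not shown or have no probe among the members.

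The comparison of mucosa with bulb cells was made on the log2 ratio of each array, after background correction and loess normalization, and the mean over 4 arrays was tested against 0 with limma and Benjamini-Hochberg adjustment over 31868 gene names. The 46 members detected in at least 1 tissue entered it, namely 16 Hox, 21 forkhead and 9 T-box genes, with the probe of higher mean signal standing for genes with several. Hoxc6 alone was higher in mucosa cells at an adjusted p below 0.05, and 0 members were lower. The background in all gene names was 6.62% called, with 3.24% higher and 3.39% lower, so 1 of 46 members (2.17%) does not exceed it. At an unadjusted p below 0.05 there were 12 members, 9 higher and 3 lower, or 26.1% against 23.8% of all gene names.

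By the probe that stood for each gene, Hoxc6 was the only tested member with a mean log2 ratio of at least 1 in size (2.17%), against 12.9% of all gene names. The ratios had the same sign on all 4 arrays for 18 of 46 members (39.1%), 13 positive and 5 negative, against 33.6% of all gene names. For 25 of 46 members (54.3%) the 95% interval of the mean ratio lay wholly within a 2-fold difference either way, among them 11 of 16 Hox, 10 of 21 forkhead and 4 of 9 T-box genes, against 44.6% of all gene names. For the other 21 tested members, Hoxc6 included, the interval reached past 2-fold on at least 1 side. These sizes hold for the offset of 50 in the background correction, which pulls the ratios of dim probes toward 0. With the deposited ratio the mean was 0.80 for Hoxa4, 0.65 for Hoxb1, 0.76 for Hoxb3, 0.51 for Hoxb8, 0.93 for Hoxb13, 0.78 for Hoxc4, 0.58 for Hoxc10, 0.22 for Hoxc12 and -0.57 for Hoxa9, each over 1.5 times the value given below, and none of these 9 was called.

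The members' median log2 ratio was 0.22, with 0.24 for Hox, 0.12 for forkhead and 0.21 for T-box genes, against 0.012 over all gene names. This shift was uneven between replicates. The members' median was -0.080 on array 1, 0.064 on array 2, 0.33 on array 3 and 0.44 on array 4, while that of all gene names stayed between -0.0036 and 0.047. Member probes also had more G and C bases, with a median of 48.3% against 43.3% of all probes, and the members' median was 0.12 after a trend with probe GC content was removed.

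**Figure D3:**
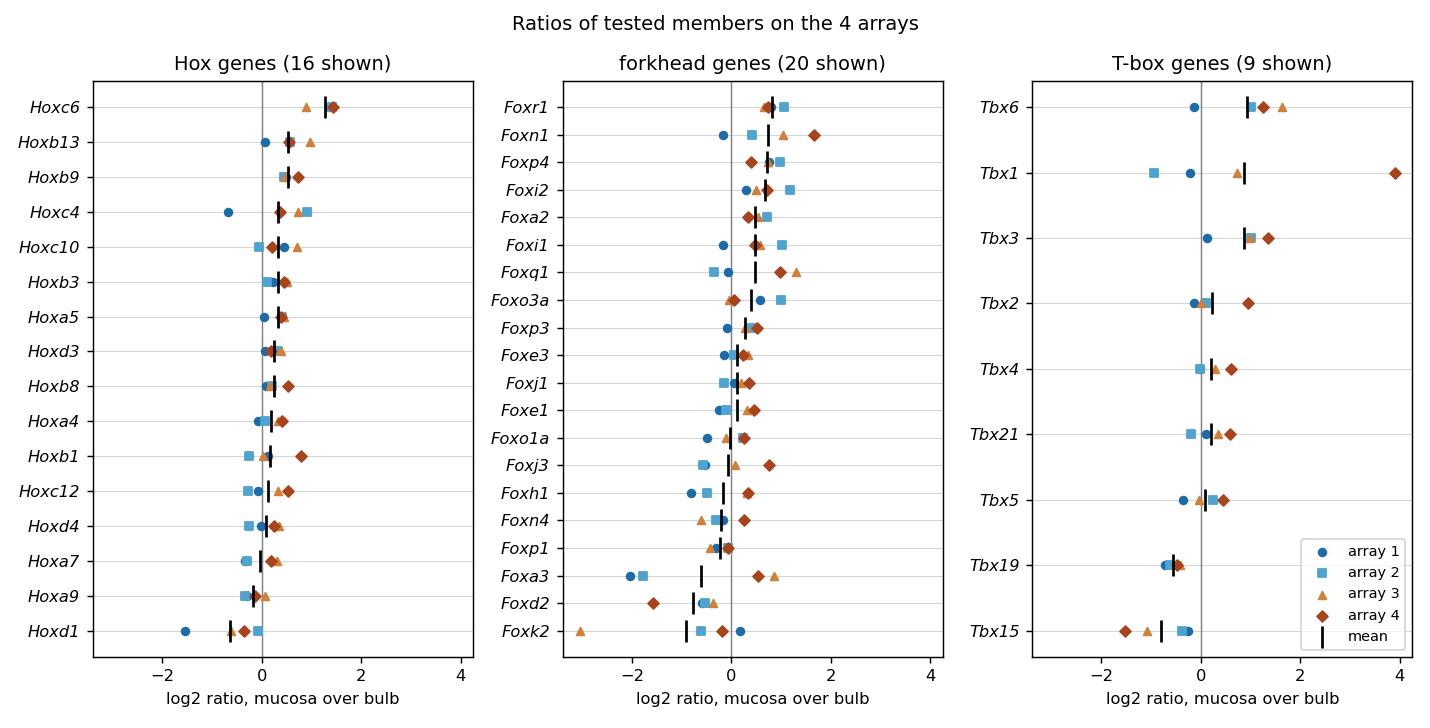
Log2 ratio of mucosa over bulb cells for tested members, 1 row per gene and 1 point per array, with the mean as a vertical bar. The Hoxc6 points lie between 0.89 and 1.44, while Tbx1, Foxa3 and Foxk2 have points spread over more than 2 log2 units.

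Hoxc6, a gene of the middle of its cluster that is used in the embryo's thoracic region, was 2.42-fold higher in mucosa cells. Its log2 signal was 11.13, 11.23, 10.77 and 11.07 in mucosa cells of replicates 1 to 4, against 9.78, 9.82, 9.88 and 9.62 in bulb cells. The 2 sets did not overlap, and replicate 3 had the smallest difference. Log2 signals here and below were normalized within arrays only, so whether sets overlap across arrays also depends on how bright each array was. Its log2 ratio was 1.36, 1.41, 0.89 and 1.44 on the 4 arrays, with a mean of 1.28 ± 0.26 (SD, n = 4), a 95% interval of 0.77 to 1.78 and an adjusted p of 0.0218 by limma. The spot stood 41.9 to 64.1 times above local background in mucosa cells and 17.4 to 26.1 times in bulb cells. The call was lost without replicate 1 (adjusted p = 0.0879), without replicate 2 (0.108), without replicate 4 (0.0747) and with a trended robust variance in limma (0.0509), while the log2 ratio stayed between 1.08 and 1.499 in 17 settings, of which 13 made the call.

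The probes most like it in sequence had smaller ratios. Hoxb7 had 0.12, 0.10, 0.11 and 0.30 on the 4 arrays (mean 0.16 ± 0.095, SD, n = 4; adjusted p = 0.655 by limma). Hoxb6 had -0.15, 0.19, -0.15 and 0.85 (mean 0.18 ± 0.47; adjusted p = 0.690 by limma). None of these 8 values reached the lowest Hoxc6 value, though the difference between genes was not tested. A probe that the file describes as a Hoxc6 transcript variant lies 26.6 kb away, at chr7:141747571-141747630, between the Hoxc10 and Hoxc6 probes. It shared 35 of the 55 bases over which it overlapped the Hoxc6 probe. A probe described as a Hox2.4 homolog (chr7:141754654-141754713) lies between it and the Hoxc6 probe. The probe described as a variant is therefore not read as a second measurement of Hoxc6, and which gene it measures was not tested. Its ratios were 0.14, -0.00, 0.91 and 0.93 (mean 0.49 ± 0.50; adjusted p = 0.299 by limma).

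Each array compares RNA of whole cultures, so fewer cells of a type and less RNA per cell cannot be told apart. Lists of cell type markers also differed between the tissues. Their counts stand beside 3.24% called higher and 3.39% called lower of all gene names. All 15 markers of ensheathing and Schwann glia were well above background in both tissues, with 0 called higher and 7 called lower by limma, a median log2 ratio of -1.03 and a summed signal of 39830 to 49620 in mucosa cells against 73000 to 98300 in bulb cells. Of 10 fibroblast markers 4 were higher and 2 lower, with a sum of 266300 to 307300 in mucosa cells against 111800 to 159200 in bulb cells. Of 6 tested markers of smooth muscle and pericytes 4 were higher and 0 lower, with a sum of 94950 to 107100 in mucosa cells against 17740 to 28020 in bulb cells. Of 7 tested markers of the meninges 0 were higher and 2 lower, with 16140 to 22770 in mucosa cells against 24920 to 31860 in bulb cells. Epithelial markers had 1 higher and 1 lower of 9, with 10850 to 16250 in mucosa cells against 4841 to 5376 in bulb cells, and neuronal markers 0 higher and 3 lower of 9, with 2704 to 6664 in mucosa cells against 6757 to 9373 in bulb cells. A sum gives bright genes more weight than a median does. The median log2 ratio was 0.75 for fibroblast, 1.88 for smooth muscle and pericyte, -0.83 for meningeal, 0.27 for epithelial and -0.69 for neuronal markers. Astrocyte markers had 0 higher and 2 lower of 7, endothelial markers 1 higher and 1 lower of 7, and macrophage markers 1 higher and 0 lower of 8. Their part in the Hoxc6 difference, or in any ratio below, was not tested.

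In the Hoxa cluster, the anterior-group gene Hoxa4 had log2 ratios of -0.08, 0.07, 0.32 and 0.40 (mean 0.18 ± 0.22, SD, n = 4), with bulb cells well above background on 1 array only. Hoxa5, known for its role in the lung and the cervical skeleton, had 0.04, 0.40, 0.45 and 0.39 (mean 0.32 ± 0.19), positive on all 4 arrays. Hoxa7 had -0.34, -0.29, 0.30 and 0.18 (mean -0.04 ± 0.33). Arrays 1 and 2 stood below 0 and arrays 3 and 4 above it for Hoxa7. Hoxa9, a gene also used in blood stem cells, had -0.29, -0.33, 0.06 and -0.14 (mean -0.18 ± 0.18). The adjusted p of these 4 genes lay between 0.379 and 0.933 by limma, and the second Hoxa5 probe was well above background on 1 array in each tissue and was not tested.

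In the Hoxb cluster, Hoxb9 had log2 ratios of 0.49, 0.44, 0.47 and 0.73 (mean 0.53 ± 0.14; 95% interval 0.060 to 1.00). Its signal was 9.22, 9.06, 8.39 and 8.81 in mucosa cells against 8.74, 8.62, 7.93 and 8.08 in bulb cells. The 2 sets of signals overlapped, while every pair had mucosa above bulb, and the adjusted p was 0.168 by limma. Hoxb13, a gene of the tail and prostate, had 0.06, 0.57, 0.98 and 0.54 (mean 0.54 ± 0.37), and Hoxb3, of the hindbrain, had 0.23, 0.11, 0.50 and 0.44 (mean 0.32 ± 0.18). Hoxb8 had 0.09, 0.20, 0.16 and 0.52 (mean 0.24 ± 0.19). All 4 of these genes were positive on each array. Hoxb1, which marks rhombomere identity in the hindbrain, had 0.13, -0.25, 0.03 and 0.80 (mean 0.18 ± 0.44), with bulb cells well above background on 2 arrays. Adjusted p for Hoxb13, Hoxb3, Hoxb8 and Hoxb1 lay between 0.220 and 0.694 by limma.

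In the Hoxc cluster, Hoxc4 had log2 ratios of -0.68, 0.92, 0.72 and 0.37 (mean 0.33 ± 0.71), with array 1 apart in sign. Hoxc10, a lumbar-level gene, had 0.45, -0.05, 0.71 and 0.21 (mean 0.33 ± 0.33), and Hoxc12 had -0.08, -0.28, 0.32 and 0.52 (mean 0.12 ± 0.36). These other members of the Hoxc cluster had adjusted p of 0.547, 0.409 and 0.780 by limma, in the order given. In the Hoxd cluster, Hoxd3 had 0.06, 0.33, 0.40 and 0.18 (mean 0.24 ± 0.15; adjusted p = 0.490), and Hoxd4 had -0.00, -0.25, 0.35 and 0.25 (mean 0.09 ± 0.27; adjusted p = 0.831), both by limma. Hoxd3 was positive on all arrays and Hoxd4 was not.

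Hoxd1, the group 1 gene of the Hoxd cluster, was the Hox gene whose probes did not give the same result. At the probe of higher signal the log2 signal was 7.21, 7.37, 7.25 and 7.46 in mucosa cells against 8.75, 7.44, 7.86 and 7.82 in bulb cells. The ratios were -1.53, -0.06, -0.61 and -0.36, negative on all 4 arrays, with a mean of -0.64 ± 0.63, a 95% interval of -1.34 to 0.06 and an adjusted p of 0.243 by limma. At the probe of lower signal the log2 signal was 5.88, 5.77, 6.01 and 6.19 in mucosa cells against 7.99, 6.27, 7.92 and 8.43 in bulb cells. That probe was well above background on 0 arrays in mucosa cells and on 3 in bulb cells, so its difference is given against a floor, as about 2.88-fold lower in mucosa cells. This sets the bulb mean against the higher, on each array, of the lowest signal well above background and the probe's own mucosa signal. It is not a strict minimum, because signals not well above background can exceed that floor. The bulb mean also includes array 2, where the signals were 6.27 and 5.77. With each probe tested on its own over 36713 probes, of which 6.55% were called, this probe had an adjusted p of 0.0386 by limma. It entered that test through bulb cells only, so the call sets bulb cells against mucosa signals that were not well above background.

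**Figure D4:**
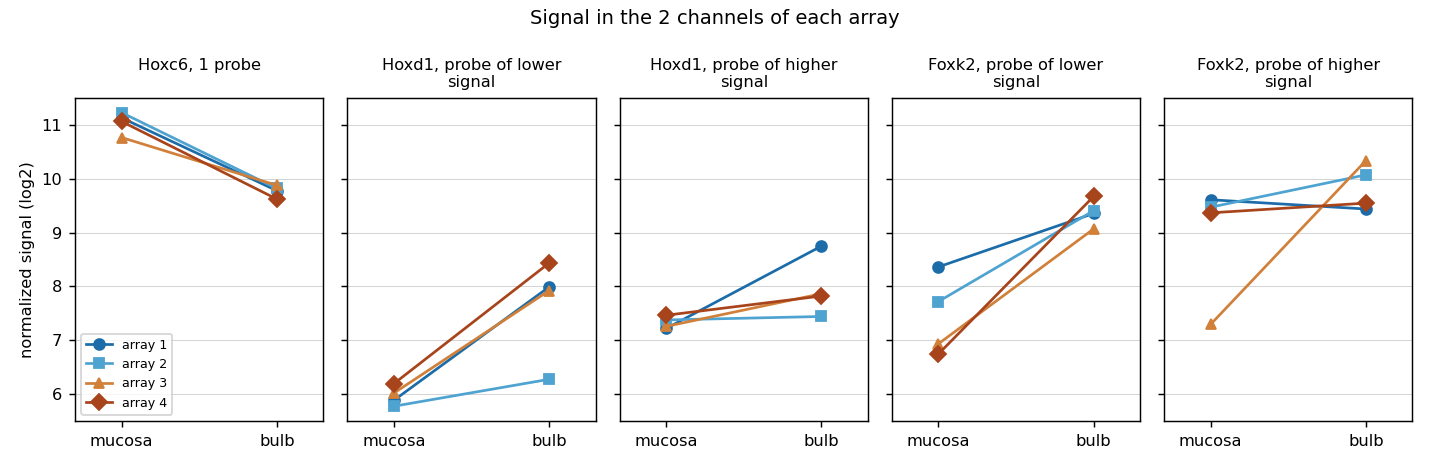
Log2 normalized signal in mucosa and bulb cells for the Hoxc6 probe and for both probes of Hoxd1 and Foxk2, with 1 line per array. The Hoxc6 lines fall toward bulb on all 4 arrays, while at the Foxk2 probe of higher signal array 3 alone is far lower in mucosa cells.

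Among forkhead genes, Foxk2, a factor linked to metabolism and autophagy, had probes that differed in call. At the probe of higher signal the log2 signal was 9.61, 9.47, 7.29 and 9.37 in mucosa cells against 9.44, 10.07, 10.34 and 9.55 in bulb cells. Replicate 3 stood apart in mucosa cells, and the ratios were 0.17, -0.60, -3.05 and -0.18 (mean -0.91 ± 1.46, SD, n = 4; 95% interval -2.21 to 0.38; adjusted p = 0.352 by limma). Without replicate 3 the mean was -0.20. At the probe of lower signal the log2 signal was 8.36, 7.72, 6.93 and 6.74 in mucosa cells against 9.35, 9.41, 9.07 and 9.67 in bulb cells. Here the sets did not overlap, the ratios were -0.99, -1.69, -2.14 and -2.93 (mean -1.94 ± 0.81), and the adjusted p over all probes was 0.0263 by limma.

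Foxd2, which acts in mesenchyme and kidney development, had ratios of -0.59, -0.52, -0.36 and -1.58 at the probe of higher signal (mean -0.77 ± 0.55; 95% interval -1.41 to -0.12; adjusted p = 0.154 by limma). The other Foxd2 probe had -0.15, -0.20, 0.52 and 0.15 (mean 0.08 ± 0.33). Its 2 probes thus differed in the sign of the mean, and neither passed the test. Of the 5 members with 2 tested probes, Tbx5 and Tbx15 had the same sign and the same call at both.

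Of the other forkhead genes, those named next were chosen after their values were seen. Foxr1 had ratios of 0.80, 1.05, 0.65 and 0.75 (mean 0.81 ± 0.17; adjusted p = 0.0669), with log2 signals of 13.00, 13.35, 13.11 and 12.82 in mucosa cells against 12.20, 12.30, 12.45 and 12.07 in bulb cells. Its 2 sets of signals did not overlap, although the test was missed. Foxp4 had 0.76, 0.98, 0.74 and 0.39 (mean 0.72 ± 0.24; adjusted p = 0.101), both by limma. Foxr1 and Foxp4 were called when the channels were treated as unpaired (0.0252 and 0.0306 adjusted p by limma), and also with median centring in place of loess.

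Other forkhead members varied more between replicates or had means near 0. Foxa3, a factor of liver and gut, had ratios of -2.03, -1.79, 0.85 and 0.54 (mean -0.61 ± 1.51; adjusted p = 0.541 by limma), with arrays 1 and 2 far below 0. Foxj3 had -0.53, -0.58, 0.07 and 0.76 (mean -0.07 ± 0.63). The forkhead genes whose intervals lay closest around 0 were Foxj1 (mean 0.11 ± 0.22; interval -0.38 to 0.60) and Foxo1a (mean -0.03 ± 0.35; interval -0.58 to 0.51). The Foxo1a probe had a signal of 115 to 164 times local background in mucosa cells and 151 to 169 times in bulb cells. Foxo3a had a mean of 0.39 ± 0.48, and Foxp1, known for roles in lymphocytes and motor neurons, a mean of -0.22 ± 0.18 with an interval of -0.70 to 0.26 and 0 of 4 arrays above 0. A difference of 2-fold either way lies outside the intervals of Foxj1, Foxo1a and Foxp1 at this offset. The Foxj1 probe was dim, at 2.0 to 3.8 times local background in mucosa cells and 1.9 to 3.5 times in bulb cells. The offset pulls the ratio of such a probe toward 0, so the Foxj1 interval does not exclude a larger difference.

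Among T-box members 0 of 9 passed the test in either direction, against 6.62% of all gene names. An unadjusted p below 0.05 was found for 4 of 9 (44.4%), against 23.8% of all gene names. These counts leave out Tbx18, a T-box gene set aside by the rule and listed here as a meningeal marker. Tbx18 was lower in mucosa cells, with ratios of -2.58, -3.17, -3.23 and -2.11 (mean -2.77 ± 0.53; adjusted p = 0.00439 by limma). The T-box members whose array values follow were picked after those values were seen. Tbx3, a repressor that acts in limb and breast development, had log2 signals of 11.15, 11.09, 10.84 and 11.54 in mucosa cells against 11.02, 10.09, 9.86 and 10.18 in bulb cells. The bulb signal of replicate 1 overlapped with the mucosa range, and the ratios were 0.13, 1.00, 0.98 and 1.35 (mean 0.87 ± 0.52; 95% interval 0.24 to 1.495; adjusted p = 0.112 by limma). Tbx15, of skeletal and dermal mesenchyme, had signals of 11.76, 11.36, 11.64 and 11.13 in mucosa cells against 12.01, 11.74, 12.71 and 12.66 in bulb cells. Bulb was above mucosa in each pair, most in replicates 3 and 4, with a mean ratio of -0.81 ± 0.60 (adjusted p = 0.152 by limma), and its other probe had -0.67 ± 0.87. Tbx6, which acts in somite formation, had -0.14, 1.00, 1.63 and 1.25 (mean 0.94 ± 0.76; adjusted p = 0.149 by limma). Tbx19, a pituitary factor, had -0.72, -0.63, -0.42 and -0.48 (mean -0.56 ± 0.14; adjusted p = 0.152 by limma), with the smallest SD of the 9 tested T-box members.

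Tbx1, a factor of the pharyngeal arches, was set by 1 replicate. Its log2 signal was 8.19, 8.44, 8.88 and 11.75 in mucosa cells against 8.42, 9.38, 8.15 and 7.85 in bulb cells, and the ratios were -0.23, -0.94, 0.73 and 3.91 (mean 0.87 ± 2.14; adjusted p = 0.524 by limma). Only the mucosa cells of replicate 4 had a high signal. Tbx4 and Tbx5, known from hindlimb and forelimb, had the intervals closest around 0, at -0.31 to 0.73 for Tbx4 (mean 0.21 ± 0.30) and -0.47 to 0.62 for Tbx5 (mean 0.08 ± 0.35). The rest of the family was Tbx2, a repressor of cell cycle inhibitors (mean 0.23 ± 0.49), and Tbx21 (mean 0.21 ± 0.33).

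Genes of these families, or probes described as like them, also occur on the array under other names and were outside the rule. Of 23 such names, 14 were found through a reference table and the others through their description in the files. Among the latter was a probe described as a partial HOXD1 match that lies on chromosome 2, while the Hoxd probes lie on chromosome 3. The 23 names had 27 probes, and 21 names were tested, with 0 higher, 1 lower and a median log2 ratio of 0.18. Over all gene names 3.24% were called higher and 3.39% lower. The lower one was Foxp2 (RGD1559697 on the array), a factor of speech and cerebellar circuits, with ratios of -3.03, -1.31, -1.92 and -1.53. It was 3.86-fold lower in mucosa cells (mean -1.95 ± 0.77, SD, n = 4; adjusted p = 0.0227 by limma). A second Foxp2 probe had a mean of -1.19 ± 0.82 and an adjusted p of 0.0989 over all probes by limma.

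Genes that work with these factors were listed by function, for comparison with 3.24% higher and 3.39% lower of all gene names. Of the Hox cofactors of the Meis, Pbx and Tgif type, 7 of 11 were tested, with 0 higher and 0 lower and a median log2 ratio of 0.53. Meis2, a DNA-binding partner of Hox proteins, was well above background on 3 arrays in mucosa cells and on 0 in bulb cells, so its ratio is not given, and it did not pass the test. Of the Polycomb and trithorax regulators, which keep Hox genes silent or active, 18 of 22 were tested, with 0 higher, 0 lower and a median of -0.089. Neither the 6 tested genes of the ParaHox, Cdx and Evx group (median 0.21) nor the 16 tested motile cilia genes (median 0.20) held a call. Eomes, the 1 tested of the listed T-box genes without a numbered Tbx name (0.45), was not called either.

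Of 10 tested factors of forebrain and midbrain patterning, 0 were higher and 1 was lower, with a median of 0.12. This was Sox2 (RGD1565646 on the array), a factor of neural progenitors, with ratios of -1.98, -1.69, -1.05 and -0.84 (mean -1.39 ± 0.54; adjusted p = 0.0337 by limma). Of 23 tested genes of the FoxO pathway and its targets, 3 were higher and 0 lower, with a median of -0.29. Cdkn1a, the cell cycle inhibitor p21, had 1.95, 1.95, 2.97 and 2.41 (mean 2.32 ± 0.49; adjusted p = 0.00657). Klf2, a zinc-finger factor, had a mean of 1.42 ± 0.57 (adjusted p = 0.0342), and Irs2, which relays insulin signals, had a mean of 1.26 ± 0.45 (adjusted p = 0.0357), all by limma. The ratios of Foxo1a and Foxo3a (now Foxo1 and Foxo3) themselves, as given above, did not pass the test.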

How the data were processed

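Polyadenylated RNA was amplified by PCR of cDNA before labelling, per the labels' protocols, which can shift the ratio of transcripts. The files deposited by the authors hold spot and local background intensity on a linear scale, not normalized. Per the file headers, the deposited ratio is a log10 of Cy5 over Cy3, made by Feature Extraction 10.5.1.1 (version 9.1 in the submitters' processing notes), and the flags for background and outliers come from the same files. Median signals lay between 567 and 842 (mucosa) and between 342 and 382 (bulb), and the number of arrays limits precision.

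Signals were corrected with normexp (offset 50) and loess (limma 3.58.1, R 4.3.3), where controls and outliers got a weight of 0. Probes had to be well above background on at least 3 arrays in 1 channel. This kept 36749 of 41012 probes. The brightest probe stood for each name. Ratios were tested with lmFit and eBayes (6.36 degrees of freedom). Log2 values were computed here. Named in full by a rule were called members, members of at least 1 in mean log2 ratio with 1 sign, genes with differing probes and detected Hox genes. For each family the 2 intervals closest around 0 were named too. Other forkhead and T-box members given with their values on each array were picked after those values were seen. Members and lists were chosen with earlier results of these data known. Reference names are of a rat gene table, used for names only; positions are rn4, without annotation of exons. Python 3.11.15, pandas 2.3.3, numpy 2.4.6, matplotlib 3.10.9 and jsonlite 2.0.0 read files and drew figures. Some members are counted but their values are not reported here. Alternatives are in the closing section.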

Additional observations from a re-analysis of the deposited data

Results flagged for a closer look

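In 3 of the 22 named members tested for it, 1 of the 4 arrays lay far from the other 3 by Dixon's ratio, where chance flags about 1 in 20. The log2 ratio of Hoxa5 was 0.045 on array 1, against 0.39 to 0.45 on the others. That of Hoxb9 was 0.73 on array 4, against 0.44 to 0.49 on the others. That of Hoxc6 was 0.89 on array 3, against 1.36 to 1.44 on the others, and without it the mean was 1.40 with an adjusted p of 0.0444 by limma.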

How the results depend on the processing

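The number of members higher in mucosa cells (1 as reported) was 3 with median centring (Foxr1 and Foxp4 added), 0 with a trended robust variance and 0 to 1 when 1 replicate was left out. With the channels unpaired, so with no replicate block, it was 4 (Foxr1 and Foxp4 among those added), and 1514 of all gene names were lower and 1636 higher, against 1079 and 1031 with the pairing within arrays. The number lower (0) was 2 with every probe tested on its own (Foxk2, and Hoxd1 at a probe well above background on 0 mucosa arrays) and 1 with updated names (Foxp2, 58 members tested). Over all gene names, trended robust variance gave 568 higher and 330 lower, median centring 1466 and 993, the deposited ratio 742 and 694, and leaving out replicates 282 to 539 higher and 263 to 522 lower. Detected members numbered 23 in mucosa and 21 in bulb cells at 10 times background. Signs turned with median centring for Foxj1 (-0.12), Foxo1a (0.22), Hoxa4 (-0.27), Hoxa7 (0.12), Hoxb1 (-0.22), Hoxb3 (-0.091) and Hoxd4 (-0.075), with the deposited ratio for Hoxa7 (0.046) and with the GC trend removed for Hoxd4 (-0.0092). With 1 replicate left out the log2 ratio ran from -0.13 to 0.12 for Foxo1a, -0.15 to 0.064 for Hoxa7, -0.030 to 0.32 for Hoxb1, -0.013 to 0.25 for Hoxc12, -0.00080 to 0.20 for Hoxd4 and -0.048 to 0.22 for Tbx5. The causes were not tested. Slide and scan time were 1 each, so a block for them could not be run. Removal of the GC trend and the rule of 10 times background were added after seeing the data. Precision is limited by 4 arrays and by dim signals, with 4 of 21 Hox genes at 10 times background in mucosa cells and 3 in bulb cells.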
